A study of Mus musculus with 36 samples.

Results

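The nuclear-encoded subunits of the mitochondrial respiratory chain and ATP synthase were followed across livers of mice with an LXRalpha point mutation. The subunits were chosen by symbol: rows whose name begins with Ndufa, Ndufb, Ndufc, Ndufs, Ndufv, Uqcr, Cox4 to Cox8 or Atp5. Assembly factors with Ndufaf names (8 rows) and names with a -ps suffix (7 rows) were left out of the 95 rows found. This gave 80 of the 49315 genes listed, of which 36 belong to complex I, 8 to complex III, 20 to complex IV and 16 to complex V. Ndufa4 and its paralog Ndufa4l2 are named after complex I but are counted here with complex IV, where the Ndufa4 protein resides. Of the 80, 8 are paralogs known mainly from muscle, lung, testis or low oxygen, and the other 72 are called the common subunits.

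Liver polyA RNA was sequenced from 36 male mice aged 11 to 12 weeks, 4 in each of 9 groups. CRISPR editing had changed tryptophan (W) 441 of LXRalpha to phenylalanine (F), and the mice were W/W controls, W/F heterozygotes or F/F homozygotes. The design text writes the symbol Nr1h2 beside LXRalpha, whose usual symbol is Nr1h3, and the table holds no sequence with which to check the allele. Mice of each genotype received normal chow, a MASH-promoting diet with vehicle, or the same diet with the LXR agonist T0901317. The diet lasted 4 weeks, and vehicle or T0901317 at 10 mg/kg was given daily by gavage in the last 2 weeks. The chow mice were an independent cohort, so diet and cohort cannot be told apart in any comparison with chow. The labels name no founder number and no litters. P-values measure the spread between these mice.

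Oxidative phosphorylation passes electrons from NADH through complex I, and from succinate through complex II, to coenzyme Q, complex III, cytochrome c and complex IV. Proton pumping by complexes I, III and IV drives ATP synthase, which is also called complex V. Most subunits are made from nuclear genes and imported, while 13 core subunits are made from mitochondrial DNA, so that the complexes are mosaics of both genomes. In liver they serve gluconeogenesis, urea synthesis and fatty acid oxidation, and hepatocytes are rich in mitochondria. Transcription of the nuclear genes is known to involve NRF1, the ETS factor GABP, YY1, ERRalpha and the coactivator PGC-1alpha.

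Windows before the transcription start were searched for the binding motifs of those factors, and 5 are shown because their genes carry the results below. Of the 72 common subunits, 60 matched a RefSeq promoter window of GRCm38.p6 that runs from 250 bases before to 50 after the start. Shown are 280 bases, ending 30 after the start, written 5′ to 3′ on the gene's strand with motif matches in capitals. Ndufb10, at chr17:24724394-24724673 on the minus strand, was among the largest falls in W/F vehicle livers, and Uqcr11, at chr10:80406792-80407071 on the minus strand, rose with T0901317 in W/W. Cox8a, at chr19:7217587-7217866 on the minus strand, also rose there, and Atp5b, at chr10:128083057-128083336 on the plus strand, encodes the catalytic beta subunit. Cox7a2l, at chr17:83514304-83514583 on the minus strand, moved against most other subunits on deposited TPM.
Ndufb10: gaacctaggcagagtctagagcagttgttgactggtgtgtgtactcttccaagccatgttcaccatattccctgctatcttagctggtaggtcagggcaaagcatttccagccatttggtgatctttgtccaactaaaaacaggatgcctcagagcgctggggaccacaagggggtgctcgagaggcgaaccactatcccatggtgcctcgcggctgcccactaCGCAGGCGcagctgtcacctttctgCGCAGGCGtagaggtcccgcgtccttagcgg
Uqcr11: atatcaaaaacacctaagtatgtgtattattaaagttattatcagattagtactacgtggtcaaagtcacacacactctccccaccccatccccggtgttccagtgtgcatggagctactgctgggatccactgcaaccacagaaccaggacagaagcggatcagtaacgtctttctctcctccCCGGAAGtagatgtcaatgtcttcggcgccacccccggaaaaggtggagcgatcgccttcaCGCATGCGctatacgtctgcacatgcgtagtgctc
Cox8a: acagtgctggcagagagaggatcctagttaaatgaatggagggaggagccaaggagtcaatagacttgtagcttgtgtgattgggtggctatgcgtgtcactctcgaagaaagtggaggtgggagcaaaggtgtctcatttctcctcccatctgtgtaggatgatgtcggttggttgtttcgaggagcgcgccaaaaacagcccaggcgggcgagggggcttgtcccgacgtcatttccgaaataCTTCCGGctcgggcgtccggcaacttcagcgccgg
Atp5b: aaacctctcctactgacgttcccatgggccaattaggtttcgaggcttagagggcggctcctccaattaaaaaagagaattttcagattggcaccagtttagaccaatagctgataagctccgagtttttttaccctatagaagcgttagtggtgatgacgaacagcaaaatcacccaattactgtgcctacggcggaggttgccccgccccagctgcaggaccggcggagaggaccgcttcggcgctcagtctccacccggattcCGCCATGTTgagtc
Cox7a2l: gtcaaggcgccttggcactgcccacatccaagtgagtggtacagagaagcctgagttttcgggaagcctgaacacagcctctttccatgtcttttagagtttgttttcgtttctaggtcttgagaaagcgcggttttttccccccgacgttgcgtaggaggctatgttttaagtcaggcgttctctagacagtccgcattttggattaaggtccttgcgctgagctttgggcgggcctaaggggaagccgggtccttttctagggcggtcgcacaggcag
The capitals mark 2 NRF1 cores in Ndufb10, an ETS core and an NRF1 core in Uqcr11, an ETS core in Cox8a and a YY1 core in Atp5b, read on either strand. The Cox7a2l window holds none of the searched motifs, while that of Atp5g2, which moved the same way on deposited TPM, holds 1 NRF1 core. A link between motifs and changes was not tested.

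The NRF1 core CGCANGCG was found in 38.3% of the 60 common subunits with a window, against 18.0% of the 10846 tested genes that had one and 9.22% of all 27025 genes with windows. The YY1 core AANATGGCG was found in 16.7%, against 5.55% and 2.76%. The ETS core CCGGAAG was found in 23.3%, against 18.7% and 9.93%. At least 1 of these 3 motifs was in 63.3% of the common subunits, 35.6% of tested genes and 18.9% of all genes. The ERRalpha element TCAAGGTCA was in 1.67%, 0.350% and 0.466%. An LXR-type element, taken as 2 copies of AGGTCA in the same direction 4 bases apart, was found in 0 of the 60 windows, in 0 of the tested genes and in 4 of all genes. Both strands were searched, none of these motifs contains another, and the median GC content of the windows was 57.3% for the common subunits and 60.0% for tested genes. A match describes the letters only.

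Values are TPM, so each gene is a share of its library and is scaled by gene length. The common subunits had mean levels from 12.7 TPM to 1068 TPM, with a median of 169.9 TPM. Library depth, read from the whole-read steps in the TPM values, was 18.1 to 35.8 M reads (M, 1000000) with a median of 23.9 M. The least counted common subunit was Atp5s, a small ATP synthase-associated factor, with at least 82 reads in every library. Of the 80 genes, 77 passed the filter of 1 TPM in at least 4 samples and were tested. Cox7b2, Cox8b and Cox8c did not pass. Some subunits share exon sequence with other annotated genes, so that reads could be divided. The share of 50-base words was 41.6% for Atp5o, most with an antisense gene, and 15.6% for Ndufb9, most with a gene annotated as protein-coding. It was 38.3% for Atp5g2 and 13.8% for Cox7a2l, most with processed pseudogenes.

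Hepatocyte markers were the most abundant of the marker lists in every library but the mix of markers differed between groups. The summed TPM of 9 hepatocyte markers was 92060.4 to 117595 in W/W vehicle, 67861 to 77323 in W/F vehicle and 43728 to 48009 in F/F vehicle livers. The sum of 10 macrophage markers was 166 to 309.8, 3096 to 4287 and 3892 to 5009 in the same groups, and that of 7 bile duct cell markers 67.5 to 73.1, 1185 to 1615 and 2950.4 to 3592. The part of these cells in the results was not tested. In whole liver, fewer cells of a type and less RNA per cell cannot be told apart. Many transcripts gained share of TPM in mutant livers on the diet, which does not tell whether their amount rose. Each count below is therefore given on the deposited TPM and after rescaling every library by its median-of-ratios factor. A gene that keeps its share of TPM while most others gain is flat on the first scale and lower on the second.

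The common subunits varied less than the typical gene when measured as shares of the library. The spans that follow are on deposited TPM, where the typical gene itself shifted between groups, and they were not computed on rescaled values. For the 72 common subunits, the highest of the 9 group means exceeded the lowest by a median of 0.39 on the log2 scale, against 0.92 for the 5791 genes in the same range of levels and 1.05 for all tested genes. In 52 of the 72 this span was below 0.50, and the widest was 0.95. Of the 72, 40 had their highest mean in W/W T0901317 livers, 36 their lowest in W/F vehicle and 15 in F/F vehicle. All 80 subunits together made up 1.56, 1.62, 1.66 and 1.498% of the TPM of the W/W vehicle libraries. They made up 1.48, 1.36, 1.29 and 1.47% in W/F vehicle and 1.63, 1.42, 1.45 and 1.54% in F/F vehicle. Every W/F vehicle library was below all 4 W/W vehicle libraries, whereas the F/F vehicle libraries overlapped them. With T0901317 the sums were 1.97, 1.69, 1.74 and 1.74% in W/W, against 1.72, 1.58, 1.603 and 1.69% in W/F livers and 1.54, 1.71, 1.59 and 1.55% in F/F livers, and the W/W and W/F libraries all lay above their vehicle counterparts.

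**Figure D1:**
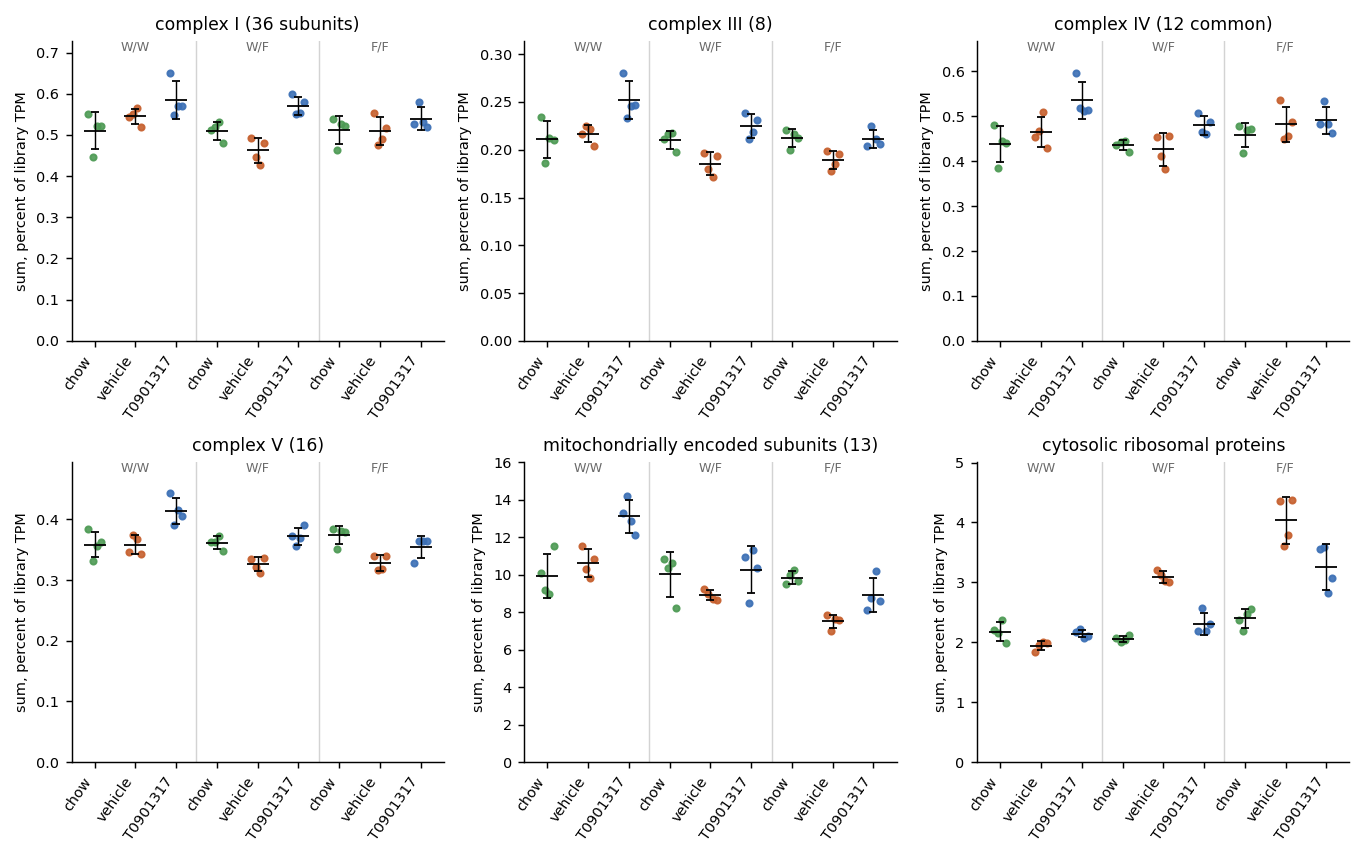
Summed TPM of each complex, of the 13 mitochondrially encoded subunits and of the cytosolic ribosomal proteins, as percent of the library, for the 36 livers; points are mice, bars the mean ± SD of 4. The nuclear-encoded complexes stayed within narrow ranges, each with its lowest mean in W/F vehicle, while the mitochondrially encoded sum was lowest in F/F vehicle and the ribosomal sum highest there.

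In F/F against W/W livers on the diet with vehicle, subunits mostly kept or slightly lost their share of TPM while the typical gene gained. Their median log2 fold change was -0.075, on the log2(TPM + 1) scale used throughout, and that of all 16638 genes tested was 0.70. By limma with Benjamini-Hochberg adjustment over all genes, 13 of 77 were higher and 27 lower (background 69.3% higher and 7.13% lower of all genes tested). After rescaling, 3 were higher and 70 lower, with a median of -0.94 against an all-gene median of 0.03 (background 31.0% and 28.1%). All 36 subunits of complex I and all 8 of complex III were lower on the rescaled values, as were 11 of 12 common subunits of complex IV and 15 of 16 of complex V. On the deposited values complex III had the most one-sided shift, with 6 of 8 lower, 1 higher and a median of -0.25.

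Ndufb9, an accessory subunit of the membrane arm of complex I, had the largest fall in F/F vehicle livers among subunits whose groups did not overlap. Its TPM was 453, 482, 533 and 464 in W/W vehicle, 332, 320.5, 292 and 348 in W/F vehicle and 382, 321, 357 and 356 in F/F vehicle. No mutant library reached the W/W range, and the change in F/F was -0.45 (SE 0.086, adjusted p 2.48e-05, and -1.31 after rescaling). Other membrane arm subunits were lower too, with changes of -0.34 for Ndufb5 and -0.33 for Ndufb2. Atp5a1, the alpha subunit of the catalytic head of ATP synthase, had 748, 835, 745 and 753 TPM in W/W vehicle and 603, 607, 603 and 661 in F/F vehicle. These ranges did not overlap, and the change was -0.32 (SE 0.068, adjusted p 0.000114). Uqcrc2, a core protein of complex III, changed by -0.32 (adjusted p 0.000278).

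Heterozygous livers on the diet with vehicle also had more subunits lower than higher. Of the 77 tested subunits, 6 were higher and 34 lower than in W/W vehicle, with a median of -0.16 against 0.52 for all genes (background 61.6% higher and 6.83% lower). The count of 40 in both directions fell to 25 without W/F vehicle replicate 3. After rescaling, 1 was higher and 70 were lower, with a median of -0.82 (background 27.6% and 25.5%). Ndufb10, another membrane arm subunit with cysteine motifs of the intermembrane space, had 237, 232, 203 and 214 TPM in W/W vehicle and 177, 136, 136 and 149.9 in W/F vehicle. All 4 heterozygous livers lay below all 4 controls, and the change was -0.57 (SE 0.10, adjusted p 7.41e-06). Ndufb9 changed by -0.58, and Ndufs7, which carries the last iron-sulfur cluster before coenzyme Q, by -0.47. In F/F vehicle Ndufb10 was 223, 162, 173 and 182 TPM, which overlapped W/W. Complex I had 16 of 36 lower and 0 higher, complex III 4 of 8 lower, complex IV 5 of 12 and complex V 9 of 16.

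**Figure D2:**
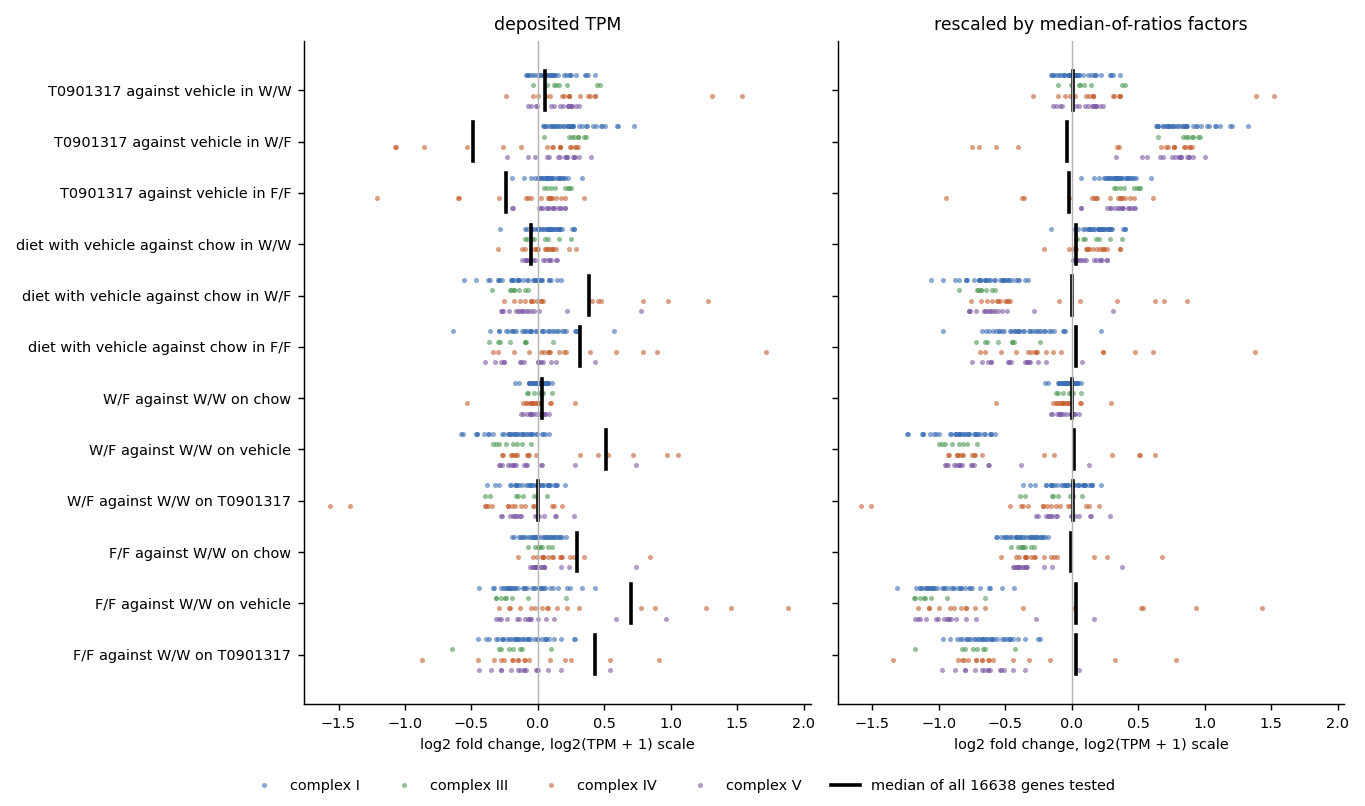
Log2 fold change of each tested subunit in the 12 comparisons of 2 groups, on deposited TPM (left) and after rescaling (right), coloured by complex; the black bar is the median of all 16638 genes tested. On deposited TPM the subunits lie near 0 while the bar moves to 0.70 in F/F against W/W on vehicle; after rescaling the bar lies near 0 and 70 of the 77 subunits are called lower.

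On chow no subunit was called in heterozygous livers: 0 of 77 were higher and 0 lower by limma in either scaling (background 0.198% higher and 0.288% lower), and the median was -0.0067. On deposited TPM 0 of the 77 had an unadjusted p under 0.05. F/F livers on chow had 7 subunits higher and 0 lower on deposited TPM (background 43.0% and 3.65%), while all genes had a median of 0.29. After rescaling, 1 was higher and 57 were lower, with a median of -0.35 (background 15.9% and 14.0%). The catalytic beta subunit Atp5b rose on deposited TPM by 0.24 (adjusted p 0.00952) and Cox7a2 by 0.27 (adjusted p 0.0017), but rescaled values were -0.15 and -0.11 and not called. The direction on chow depended on the scale. Macrophage markers already summed to 526 to 833 TPM in F/F chow livers against 113 to 162 in W/W chow.

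On deposited TPM a limited set of subunits was higher with T0901317 in W/W livers. Against W/W vehicle, 21 of 77 were higher and 0 lower, with a median of 0.13 against 0.057 for all genes (background 7.87% higher and 2.91% lower). By complex, 4 of 36 in complex I, 2 of 8 in complex III, 6 of 12 in complex IV and 7 of 16 in complex V were higher. After rescaling 9 of 77 were called in either direction, 9 higher and 0 lower, and 0 of them were in complex V. Counted in either direction, that is 11.7% of the subunits (background 13.5%), no larger a share than among all genes. The rescaled background of genes called higher is not given here, so the 9 higher calls cannot be set against it. Uqcr11, a small subunit of complex III, had 336, 355, 352 and 307 TPM with vehicle and 576, 403, 462 and 445 with T0901317. The groups did not overlap, and the change was 0.47 (SE 0.10, adjusted p 0.000967, and 0.40 after rescaling with adjusted p 0.0398). Cox8a, a small membrane subunit of complex IV, went from 612, 597, 692 and 585 TPM to 879, 837, 801 and 834, again with no overlap (0.43, adjusted p 0.000737, and 0.36 after rescaling). Uqcr10 changed by 0.45 (0.38 after rescaling, adjusted p 0.0367) and Ndufs1, the large iron-sulfur subunit of complex I, by 0.43 on deposited TPM. Atp5a1 was called on deposited TPM (0.31, adjusted p 0.00245) and not after rescaling (0.24, adjusted p 0.109).

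In W/F livers T0901317 raised most subunits while the typical gene fell. Of 77, 43 were higher and 4 lower, with a median of 0.22 against -0.49 for all genes (background 6.59% higher and 59.3% lower). After rescaling the counts were 71 and 2 with a median of 0.82 (background 23.6% and 27.1%). Ndufb10 was 265, 236, 235 and 249.7 TPM in W/F T0901317 livers, all above the W/F vehicle range given earlier, a change of 0.72 (SE 0.10, adjusted p 2.28e-07). Ndufa5, an accessory subunit of the peripheral arm, changed by 0.60 and Ndufs7 by 0.59. In W/F T0901317 replicate 2 the macrophage markers stood apart, with sums of 166, 1029, 217 and 147 TPM in the 4 livers. Without that library 49 subunits were called in both directions, against 47 with it, and after rescaling the count was 73 with or without it.

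In F/F livers fewer subunits were called with T0901317. On deposited TPM 11 subunits were higher and 4 lower, with a median of 0.079 against -0.24 for all genes (background 3.95% higher and 31.2% lower). The count of 15 in both directions was 4 without F/F T0901317 replicate 3, 7 without F/F vehicle replicate 3, 8 without F/F T0901317 replicate 2 and 9 without F/F vehicle replicate 2. After rescaling 49 were higher and 1 lower (background 8.32% and 7.98%), and 30 in all were called when F/F vehicle replicate 3 was left out as well. Cox7b, an X-linked subunit of complex IV, changed by 0.34 (adjusted p 0.00209) and Ndufa10, of the membrane arm of complex I, by 0.33 (adjusted p 0.00193). Uqcrc2 changed by 0.24 (adjusted p 0.0143) and was not called without F/F T0901317 replicate 3 (0.21) or replicate 4 (0.20).

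The T0901317 responses of the genotypes were compared directly as differences of differences. The W/F response minus the W/W response was called positive for 13 of 77 subunits and negative for 9 (background 5.27% higher and 53.2% lower). The all-gene median was -0.54. After rescaling the counts were 68 and 3 (background 19.9% and 24.0%). The positive differences were led by Ndufb10 at 0.71 (SE 0.14, adjusted p 7.29e-05) and Ndufs7 at 0.67, which held at 1.38 and 1.34 after rescaling. Cox6b1, a subunit of complex IV, had a difference of -0.36 on deposited TPM and 0.31 after rescaling. For F/F minus W/W, 0 were called positive and 7 negative (background 3.29% and 27.2%), and after rescaling 6 and 3 (background 7.39% and 10.0%). These 2 differences share the W/W livers.

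With all livers on T0901317, fewer subunits were called in W/F against W/W than in F/F against W/W. In W/F against W/W, 0 subunits were higher and 13 lower (background 3.65% and 6.23%). After rescaling 6 were lower, which is 7.79% of those tested (background 8.28%). Uqcr11 changed by -0.40 and Cox8a by -0.39 there on deposited TPM, and by -0.39 (adjusted p 0.0487) and -0.38 (adjusted p 0.0248) after rescaling. The direction is opposite to their rise in W/W, and both comparisons use the W/W T0901317 livers. In F/F against W/W, 8 were higher and 28 lower, with a median of -0.13 against 0.43 for all genes (background 56.3% and 6.96%). After rescaling the counts were 1 and 71 (background 24.2% and 22.7%). The deposited count of 36 in both directions was 22 without W/W T0901317 replicate 1. Uqcr11 was 286, 337, 293 and 279 TPM in F/F T0901317 livers, all below the W/W T0901317 range (-0.65, SE 0.10, adjusted p 1.17e-06). Ndufs1 changed by -0.45 (adjusted p 1.91e-05).

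**Figure D3:**
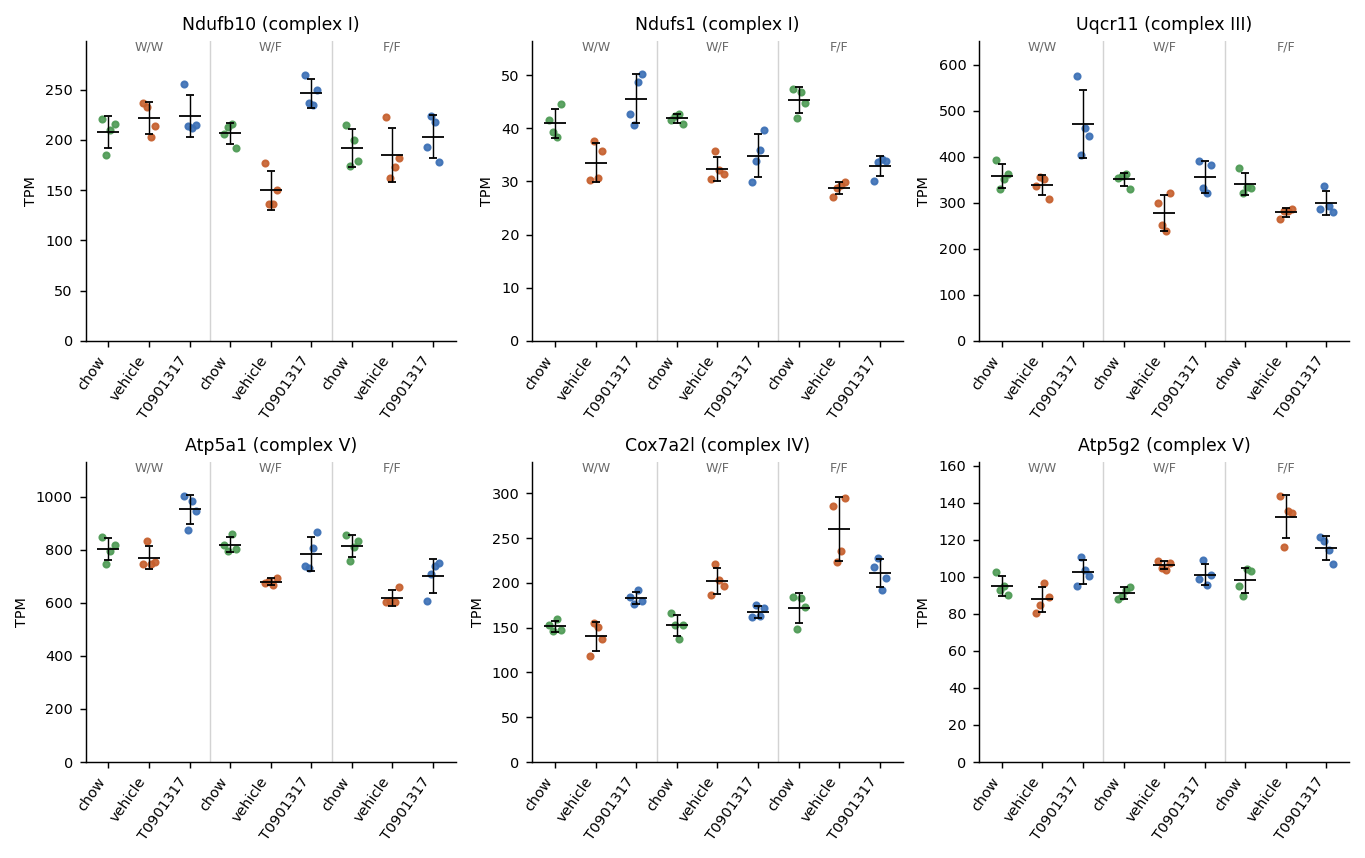
TPM of 6 subunits in the 36 livers; points are mice, bars the mean ± SD of 4. Ndufb10 dips in W/F vehicle, Uqcr11 is highest in W/W T0901317, Ndufs1 is lowest in F/F vehicle, Atp5a1 is lowest in F/F vehicle, and Cox7a2l and Atp5g2 are highest in F/F vehicle.

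In W/W livers few subunits were called for the diet with vehicle, set against the separate chow cohort. In W/W 2 of 77 were higher and 1 lower (background 2.59% higher and 10.3% lower), and after rescaling 5 were higher (background 6.98%). The median was 0.068 against -0.05 for all genes on deposited TPM. After rescaling it was 0.19 against 0.031, with 74 of the 77 above 0 and 23 at an unadjusted p under 0.05. The 3 calls were 1 without W/W chow replicate 2 or 3, and 0 without W/W vehicle replicate 1 or 3. The 1 lower gene was Ndufs1, with 41.5, 39.3, 38.4 and 44.5 TPM on chow and 30.3, 37.5, 30.7 and 35.7 on the diet, which did not overlap (-0.28, adjusted p 0.018). It was not called after rescaling (-0.16). Ndufa8, a complex I subunit of the intermembrane space, changed by 0.27 (adjusted p 0.045) and was not called without 7 of the 8 libraries taken singly.

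In W/F the diet comparison gave 7 subunits higher and 19 lower, with a median of -0.10 against 0.39 for all genes (background 52.4% and 8.53%). After rescaling the counts were 3 and 70 (background 27.9% and 27.0%). Ndufb9 (-0.55), Ndufb10 (-0.47) and Ndufb11 (-0.37), all of the membrane arm of complex I, had the largest falls with no overlap between groups. In F/F 9 were higher and 20 lower (background 46.5% and 9.27%), and after rescaling 3 and 52 (background 25.7% and 21.3%). Here the leading falls were of other genes. Ndufs1 was 47.3, 41.95, 46.8 and 44.8 TPM on chow and 27.1, 28.7, 29.3 and 29.9 on the diet, a change of -0.64 (SE 0.081, adjusted p 1.28e-07) with the groups far apart. Atp5a1 changed by -0.40 and Uqcrc2 by -0.37.

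The diet response of W/F minus that of W/W was called positive for 4 subunits and negative for 17 (background 49.5% and 5.13%). After rescaling it was called positive for 1 and negative for 70 (background 21.0% and 19.1%). The deposited count of 21 was 12 without W/W chow replicate 2 and 12 without W/F vehicle replicate 3. For F/F minus W/W, 6 were called positive and 18 negative (background 41.5% and 4.54%), and after rescaling 1 and 58 (background 14.5% and 12.3%). The deposited count of 24 in F/F was 15 without W/W chow replicate 2. The negative differences included Ndufs7 at -0.57 and Ndufb10 at -0.56 in W/F, and Uqcrc2 at -0.42 and Ndufs1 at -0.35 in F/F.

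A few common subunits went the other way, among them Cox7a2l. Its product, also called SCAF1 or COX7RP, binds complex III to complex IV in respiratory supercomplexes. Cox7a2l was 118, 155, 150.2 and 137 TPM in W/W vehicle, 187, 222, 203 and 196 in W/F vehicle and 286, 223, 235 and 295 in F/F vehicle. The 3 groups did not overlap, and the F/F change was 0.88 (SE 0.089, adjusted p 3.05e-10) and the W/F change 0.53 (adjusted p 5.27e-06). After rescaling the 2 changes were 0.02 and -0.13, neither of them called. Against the other subunits the result does not depend on that scaling, and with the median of the 72 common subunits subtracted in each library, Cox7a2l was higher by 0.94 in F/F and 0.72 in W/F. With T0901317 it was 161, 175, 162 and 171 TPM in W/F and 218, 228, 192 and 205 in F/F, and 184, 177, 192 and 179.8 in W/W, where all 4 livers lay above W/W vehicle. On deposited TPM the response was 0.39 in W/W, while it was -0.27 in W/F and in F/F -0.29. After rescaling the W/F response turned to 0.34 and the F/F response was not called. Its difference from W/W was -0.66 in W/F (adjusted p 5.85e-05) and -0.68 in F/F (adjusted p 0.000226), and after rescaling 0.018 and -0.34. The F/F response was not called without F/F vehicle replicate 4 (-0.23) or F/F T0901317 replicate 3 (-0.25). Its diet response exceeded that of W/W by 0.52 in W/F and 0.71 in F/F on deposited TPM. After rescaling neither difference was called, at -0.11 (adjusted p 0.507) and 0.23 (adjusted p 0.158).

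Atp5g2, 1 of 3 genes for the identical c subunit of the ATP synthase ring, was 80.3, 84.97, 96.5 and 89.3 TPM in W/W vehicle and 144, 116, 136 and 134 in F/F vehicle. The F/F livers were all higher (0.59, SE 0.068, adjusted p 5.09e-09), and with the common subunits as reference the change was 0.65, but on rescaled values it was -0.27. Ndufa2, a thioredoxin-like subunit of complex I, was 185, 199, 207 and 161 TPM in W/W vehicle and 267, 214, 262 and 269 in F/F vehicle. These did not overlap, with a change of 0.43 on deposited TPM, 0.49 against the common subunits and -0.44 after rescaling. Atp5s rose by 0.96 in F/F and 0.74 in W/F vehicle livers on deposited TPM, and neither change was called after rescaling, at 0.17 (adjusted p 0.52) and 0.13 (adjusted p 0.635). Across the 36 libraries the log2 values of Cox7a2l, Atp5s, Atp5g2 and Ndufa2 followed the median of the other common subunits the least among common subunits, with Pearson r from -0.17 for Cox7a2l to 0.12 for Ndufa2, against a median r of 0.69. The points share library depth and total, and r describes these libraries only. In the diet response of F/F minus W/W, Atp5g2 differed by 0.55 (adjusted p 6e-05), and in the T0901317 response by -0.42 (adjusted p 0.00202). After rescaling neither was called, at 0.069 and -0.082.

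The 8 paralogs known from other tissues were low in liver, and the 3 largest changes of any subunit in F/F against W/W on vehicle were among them. Cox7a1, the heart and skeletal muscle isoform of subunit 7a, was 2.700, 5.68, 2.82 and 2.75 TPM in W/W vehicle and 14.1, 12.1, 12.1 and 8.63 in W/W T0901317. The treated livers were all higher, with a change of 1.54 (SE 0.32, adjusted p 0.00116) and 1.52 after rescaling. In mutants the response differed. W/F livers had 11.7, 4.62, 7.82 and 9.404 TPM with vehicle and 3.803, 1.91, 4.86 and 3.02 with T0901317, and F/F livers 8.08, 13.6, 9.81 and 7.35 and 7.64, 7.097, 6.77 and 3.098. The T0901317 response minus that of W/W was -2.62 in W/F (adjusted p 1.51e-05) and -2.14 in F/F (adjusted p 0.000855), and both held after rescaling, at -2.09 and -1.88. The rise in vehicle livers against W/W was 1.05 in W/F and 1.27 in F/F on deposited TPM, and after rescaling 0.51 and 0.54, not called.

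Cox6b2, the testis isoform of subunit 6b, had a like pattern at lower levels, with 663 reads in all 36 libraries. It was 0.372, 0.639, 0.455 and 1.24 TPM in W/W vehicle, 4.27, 4.002, 2.73 and 1.83 in W/W T0901317, 2.55, 1.91, 1.89 and 2.59 in W/F vehicle and 0.479, 0.336, 0.586 and 0.772 in W/F T0901317. T0901317 raised it in W/W (1.31, adjusted p 0.000146) and lowered it in W/F (-1.07, adjusted p 0.000152), with no overlap in either. The difference of the 2 responses was -2.38 (adjusted p 4.88e-07) and that of F/F against W/W -1.90 (adjusted p 8.7e-05). Both directions held after rescaling. On this scale a pseudocount of 1 understates changes at such levels.

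Cox6a2, the muscle isoform of subunit 6a, was near its limit of detection in W/W livers, with 0.152, 0.149, 0.148 and 0.433 TPM with vehicle, and was 4.35, 1.69, 6.71 and 2.59 TPM in F/F vehicle. All F/F vehicle livers were above all W/W vehicle livers (1.88, SE 0.27, adjusted p 2.94e-07, and 1.43 after rescaling). Skeletal and heart muscle markers, a sum over 8 genes such as Acta1 and Ckm, were at 2.55, 3.68, 96.2 and 3.19 TPM in the same 4 livers and between 1.198 and 3.58 in the other groups together. Replicate 3 had both the most Cox6a2 and the highest muscle sum, and replicates 1, 2 and 4 had Cox6a2 above W/W with muscle sums of at most 3.68 TPM. Without replicate 3 the change was 1.62 (adjusted p 3.96e-06). With T0901317 Cox6a2 changed in F/F by -1.21 on deposited TPM (adjusted p 0.00137). Without F/F vehicle replicate 3 that change was -0.95 and still called. When the values were also rescaled without that library, 0 subunits were called lower with T0901317 in F/F, so the call was lost. The diet response of F/F exceeded that of W/W by 1.64 (adjusted p 0.00107). In W/F vehicle livers Cox6a2 was 1.12, 0.346, 1.197 and 1.51 TPM, which overlapped W/W (0.71, adjusted p 0.0208), and the call was lost without W/F vehicle replicate 4 (0.60).

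**Figure D4:**
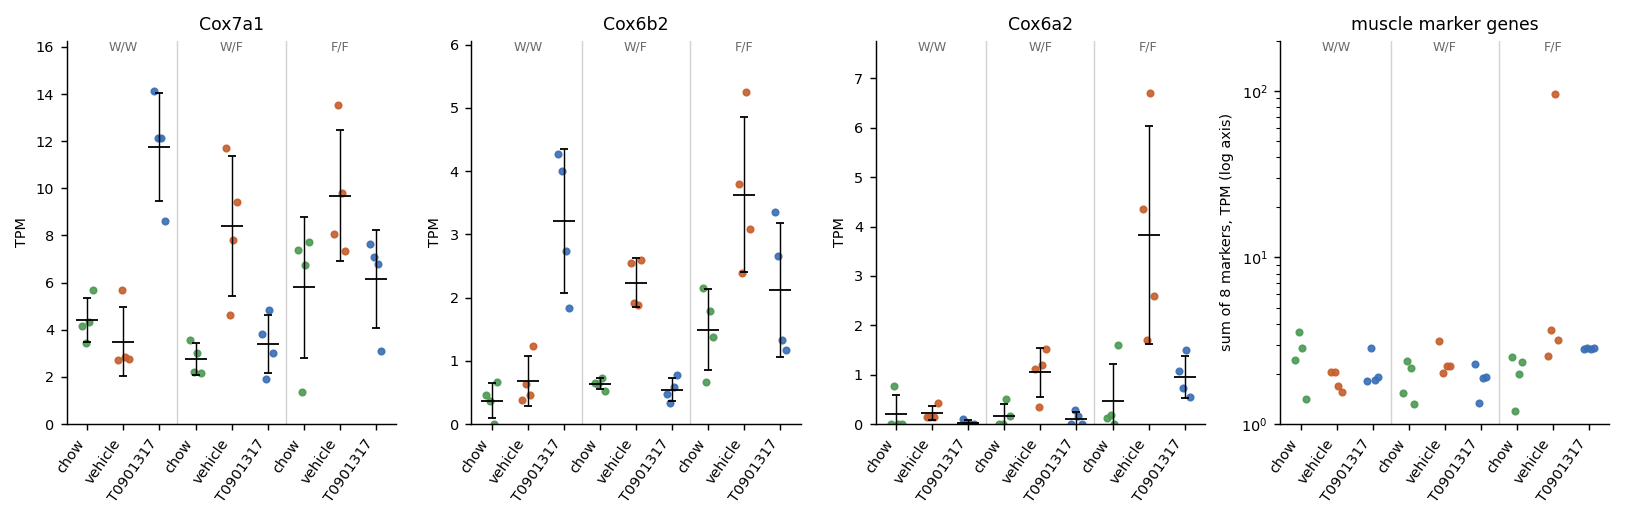
TPM of 3 tissue-restricted complex IV isoforms, and the summed TPM of 8 muscle markers on a log axis, in the 36 livers; points are mice, and bars in the first 3 panels the mean ± SD of 4. Cox7a1 and Cox6b2 are high in W/W T0901317 and in vehicle-treated mutants, and the muscle markers reach 96.2 TPM in 1 F/F vehicle liver only.

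Of the other restricted paralogs, Ndufa4l2, known from hypoxia, was at 3.21 ± 0.979 TPM in W/W vehicle and 4.13 ± 0.605 in F/F vehicle (mean ± SD, n = 4), a change that was not called (0.31, adjusted p 0.156). Cox4i2, the lung and low-oxygen isoform of subunit 4, had 128 reads in all 36 libraries and at most 1.97 TPM. It was 0, 0.129, 0.128 and 0.249 TPM in W/W vehicle and 0.144, 1.31, 0.724 and 1.97 in F/F vehicle, which overlapped (0.77, adjusted p 0.00425, and 0.52 after rescaling). Cox8b, a muscle and brown fat isoform, had 35 reads in all libraries together, Cox7b2 had 1, and Cox8c was listed at 0 in all 36. These last 3 were not tested.

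Among related lists, the mitochondrially encoded subunits lost more share than their nuclear partners in F/F livers on vehicle. Their sum was 11.5, 10.3, 9.800 and 10.8% of TPM in W/W vehicle livers, 9.24, 8.995, 8.68 and 8.68% in W/F vehicle and 7.83, 7.001, 7.62 and 7.600% in F/F vehicle. Both mutant groups lay wholly below W/W. In F/F against W/W on vehicle, 11 of 13 were lower and 0 higher (background 69.3% higher and 7.13% lower). Their median was -0.67 against -0.089 for the 72 common nuclear subunits. With the common nuclear subunits as reference, 11 were still lower, with a median of -0.61, and in W/F 4 of 13 were. On that reference 12876 of all 16638 genes were called in either direction in F/F and 12565 in W/F. The all-gene medians were 0.76 and 0.705, and shares by direction are not given for it. The libraries were made from polyA RNA, and how polyadenylation of mitochondrial transcripts bears on these values was not tested. In W/W T0901317 livers the mitochondrial sum was 13.3, 14.2, 12.9 and 12.1%, all above W/W vehicle.

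In F/F against W/W on vehicle, where 69.3% of all genes were called higher and 7.13% lower with a median of 0.70, 3 of 6 complex II and cytochrome c genes were lower and 0 higher, with a median of -0.29. Their summed TPM was 1323 to 1501 in W/W and 1081 to 1164 in F/F, with no overlap. Of 45 tested assembly factors, 26 were higher and 5 lower (median 0.27), and of 78 mitochondrial ribosomal proteins 57 and 1 (median 0.34), so that both medians lay below that of all genes. After rescaling, where 31.0% of all genes were higher and 28.1% lower, both lists turned, with 37 and 67 lower and medians of -0.52 and -0.49, which are still above the median of the subunits. Among cytosolic ribosomal proteins, 91 of 94 were higher, with a median of 1.03 on deposited TPM, and 0.17 after rescaling. Of 18 TCA cycle genes 8 were higher and 6 lower, and after rescaling 1 and 17. With T0901317 in W/W, 12 of these 18 were higher and 0 lower (background 7.87% and 2.91%). After rescaling 7 were higher (background 13.5% in either direction).

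**Figure D5:**
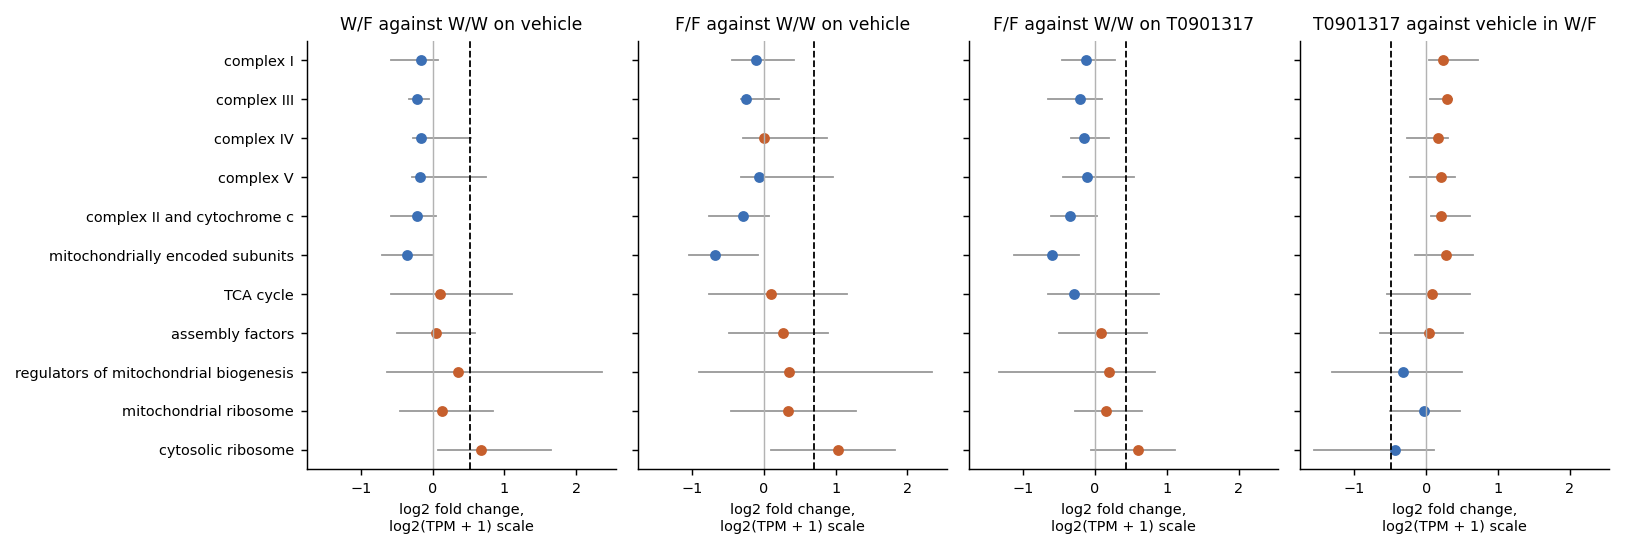
Median (point) and range (line) of the log2 fold changes on deposited TPM for the 4 complexes and 7 related lists in 4 comparisons; the dashed line is the median of all genes tested. In F/F against W/W on vehicle the mitochondrially encoded subunits have the lowest median, -0.67, and the cytosolic ribosomal proteins the highest, 1.03.

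Of 16 regulators of mitochondrial biogenesis, 10 were higher and 2 lower in F/F against W/W on vehicle on deposited TPM (background 69.3% and 7.13%), with a median of 0.35 against 0.70 for all genes. After rescaling 4 were higher and 9 lower, with a median of -0.48. Ppargc1a, which encodes PGC-1alpha, was higher by 1.34 in F/F and 0.80 in W/F vehicle livers, and with T0901317 it changed by -1.07 in W/F and -0.82 in F/F. After rescaling its F/F change on vehicle was 0.67 (adjusted p 0.00382), that in W/F was not called (0.32, adjusted p 0.171), and the changes with T0901317 were -0.64 and -0.57, both called. Nrf1 was higher by 0.78 in F/F on deposited TPM (adjusted p 1.13e-08), close to the all-gene median, and was not called after rescaling (0.11, adjusted p 0.239). Esrrg, an estrogen-related receptor, was lower at -0.66 (adjusted p 0.000665) and -0.91 after rescaling. Tfam, the packaging and transcription factor of mitochondrial DNA, changed by 0.035 on deposited TPM (adjusted p 0.755) and -0.79 after rescaling (adjusted p 1.33e-08).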

How the data were processed

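The authors deposited 1 table of TPM for 49315 genes in 36 livers, with equal column sums. Reads had been processed with Trimmomatic 0.36, STAR 2.5.2b and featureCounts of Subread 1.5.2 on GRCm38 (mm10), per the submitters' processing notes; how TPM was computed and whether strand was used are not given in the sources used here. Groups came from the sample titles. The subunits, lists, named genes and tests were chosen with earlier results of these data known. Values were taken as log2(TPM + 1), the 16638 genes that reached 1 TPM in 4 or more livers were kept, and limma 3.58.1 in R 4.3.3 with a mean trend was fitted over all 36 libraries with a mean for each of 9 groups. The 12 comparisons of 2 groups and 4 differences of responses were two-sided tests, with Benjamini-Hochberg adjustment over all 16638 genes and a threshold of 0.05. The fit was tested on simulated data. Rescaling divided TPM by median-of-ratios factors from 14786 genes above 0 in every library. Named genes were 12 core subunits, 8 restricted paralogs and, per comparison, the 3 largest and 3 smallest called changes with at least 5 TPM and no overlap; the text gives a selection, and other genes were chosen after their values were seen. Annotation was GENCODE M21, for which all 80 symbols matched. Depth, 18.1 to 35.8 M reads (M, 1000000), was recovered from TPM as whole reads, with 93.7% to 95.7% of low values within 0.1 of a whole number, where 20.0% would be by chance; p-values do not use it. Equal replicate numbers were not taken to pair the mice: r of deviations was -0.17 to 0.30 over 144 pairs. Replicate 1 was deep in several groups, such as F/F T0901317 (35.8 M) and W/F vehicle (34.5 M). In W/F chow it had 20.7 M. Alternatives tried were a pseudocount of 0.1, a filter at 5 TPM or none, other scalings, a replicate block, fewer libraries and leaving out each mouse.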

Additional observations from a re-analysis of the deposited data

Results flagged for a closer look

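Response differences between genotypes were called for several subunits on deposited TPM, each tested as an interaction in limma. In the T0901317 response of W/F minus W/W they were called for 22 subunits, among them Ndufb10 (0.71), Ndufs7 (0.67), Cox7a1 (-2.62), Cox7a2l (-0.66), Cox6b1 (-0.36) and Cox6b2 (-2.38). In that of F/F minus W/W 7 were called, among them Cox7a1 (-2.14), Cox7a2l (-0.68), Atp5g2 (-0.42) and Cox6b2 (-1.90). In the diet response of W/F minus W/W 21 were called, with Ndufb10 (-0.56), Ndufs7 (-0.57), Cox7a1 (1.58) and Cox7a2l (0.52), and in that of F/F minus W/W 24, with Uqcrc2 (-0.42), Ndufs1 (-0.35), Cox7a2l (0.71), Atp5g2 (0.55) and Cox6a2 (1.64).

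Single livers stood far from the other 3 of their group in 18 of 162 groups of 4 checked. Chance flags about 5% of independent groups of normal values. The groups here are not independent, since the sums contain checked subunits of the same libraries, and Cox6a2 had few reads. The rates therefore cannot be set against each other. F/F chow replicate 2 was low for Cox7a1 (1.37 TPM), Cox8a (544.6 TPM) and the sums of complex IV (0.418% of the library) and complex V (0.352%). W/W T0901317 replicate 1 was high for Ndufb10 (255 TPM) and the complex IV sum (0.597%), and had the only Cox6a2 reads of its group (0.107 TPM). In W/W vehicle, replicate 2 was high for Cox7a1 (5.68 TPM) and Atp5a1 (835 TPM) and replicate 4 for Cox6a2 (0.433 TPM). Cox6a2 was also high in W/W chow replicate 2 (0.775 TPM) and F/F chow replicate 4 (1.59 TPM). F/F T0901317 replicate 1 was low for Ndufs1 (30.2 TPM) and the complex V sum (0.328%). In F/F vehicle, replicate 2 was low for Ndufa2 (214 TPM), replicate 4 high for Atp5a1 (661 TPM) and replicate 3 high for the muscle marker sum (96.2 TPM), which was also high in W/W T0901317 replicate 2 (2.87 TPM).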

How the results depend on the processing

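After rescaling by median-of-ratios factors the counts of subunits called in both directions were 9 (T0901317 in W/W), 73 (W/F), 50 (F/F), 5 (diet in W/W), 73 (W/F), 55 (F/F), 71 and 73 (vehicle, W/F and F/F each against W/W), 6 and 72 (on T0901317), 58 (F/F on chow), and 71, 71 and 59 for the T0901317 response of W/F and the diet responses of W/F and F/F minus W/W. With F/F vehicle replicate 3 also left out they were 30 (T0901317 in F/F), 48 (diet in F/F), 73 (F/F on vehicle) and 53 (diet response of F/F), and with W/F T0901317 replicate 2 left out 73 (T0901317 in W/F), 3 (W/F on T0901317) and 73 (T0901317 response of W/F). These 2 omissions with rescaling and a centring on the common subunits, which gave 12 and 28 for T0901317 in W/W and W/F and 25 for W/F on vehicle, were chosen after seeing the data. Fitting only the libraries compared gave 6 (T0901317 in F/F), 0 (diet in W/W), 6 (W/F on T0901317) and 3 (F/F on chow). The replicate block gave 5 for the diet in W/W and kept every other count within 1.5 times and each of the 82 named changes on its side of the threshold; same-numbered mice of different groups correlated at a median r of 0.013 and 18 of 144 pairs exceeded 0.1, so numbers were not taken as pairs. A pseudocount of 0.1, a filter at 5 TPM and no filter kept all counts within 1.5 times.

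Rescaling reversed Ndufa2 in F/F against W/W on vehicle to -0.44 (-0.46 also without F/F vehicle replicate 3), Atp5g2 in F/F against W/W on vehicle to -0.27 (-0.29 also without F/F vehicle replicate 3), Cox7a2l in W/F against W/W on vehicle to -0.13, Atp5g2 in W/F against W/W on vehicle to -0.38, Cox7a2 in F/F against W/W on chow to -0.11, Atp5b in F/F against W/W on chow to -0.15, Ndufa2 in F/F against W/W on T0901317 to -0.25, Cox7a2l in T0901317 in W/F to 0.34 (0.37 also without W/F T0901317 replicate 2), Cox7a2l in diet in W/F to -0.10, Cox7a2l in T0901317 response, W/F minus W/W to 0.018 (0.049 also without W/F T0901317 replicate 2), Cox6b1 in T0901317 response, W/F minus W/W to 0.31 (0.37 also without W/F T0901317 replicate 2) and Cox7a2l in diet response, W/F minus W/W to -0.11. The named changes that lost their call numbered 16 after rescaling, 7 after centring, 1 without a filter, 1 with a pseudocount of 0.1 and 4 with only the libraries compared. The cause of these changes was not tested.

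Leaving out 1 mouse at a time gave counts of 15 to 20 (T0901317 in W/W), 37 to 50 (T0901317 in W/F), 4 to 17 (T0901317 in F/F), 0 to 4 (diet in W/W), 21 to 31 (diet in W/F), 24 to 30 (diet in F/F), 0 to 0 (W/F against W/W on chow), 25 to 43 (W/F against W/W on vehicle), 10 to 14 (W/F against W/W on T0901317), 5 to 8 (F/F against W/W on chow), 32 to 38 (F/F against W/W on vehicle), 22 to 35 (F/F against W/W on T0901317), 15 to 31 (T0901317 response, W/F minus W/W), 5 to 7 (T0901317 response, F/F minus W/W), 12 to 26 (diet response, W/F minus W/W) and 15 to 24 (diet response, F/F minus W/W). Counts moved by over 1.5 times without F/F vehicle replicate 2 (9) or 3 (7) or F/F T0901317 replicate 2 (8) or 3 (4) for T0901317 in F/F, without W/W chow replicate 2 (1) or 3 (1) or W/W vehicle replicate 1 (0) or 3 (0) for the diet in W/W, without W/F vehicle replicate 3 for W/F on vehicle (25) and its diet response (12), without W/W T0901317 replicate 1 for F/F on T0901317 (22), and without W/W chow replicate 2 for the diet responses of W/F (12) and F/F (15). Of 808 such fits of named changes, 15 lost a call and 0 reversed. Depth of 18.1 to 35.8 M reads limits the restricted paralogs, and a TPM table gives no counting error of its own.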

Other observations

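The share of an isoform within its family does not depend on how libraries are scaled. Cox7a2l made up 35.5, 41.7, 39.2 and 41% of the summed TPM of Cox7a2 and Cox7a2l in W/W vehicle livers, 45.5, 54, 51.6 and 47.1% in W/F vehicle and 55.4, 50.9, 51.9 and 55% in F/F vehicle. Both mutant groups lay above all W/W vehicle livers, and the share was 47.7, 46.2, 46.9 and 45.7% in F/F T0901317 livers, above all W/W vehicle and below all F/F vehicle livers. On chow it was 38.9, 39.1, 40 and 40.8% in W/W and 38.4, 36, 40.1 and 38.1% in F/F, which overlapped.

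Of the 3 genes for the ATP synthase c subunit, Atp5g2 gave 14.5, 15.2, 16.3 and 16.8% of the summed TPM in W/W vehicle, 19, 21.2, 21.3 and 20% in W/F vehicle and 23.3, 22.9, 24.8 and 23.2% in F/F vehicle, in 3 ranges without overlap. Atp5g1 gave 10.9, 12.1, 12.2 and 11.5% in W/W vehicle and 10.2, 9.67, 9.96 and 9.72% in W/W T0901317, all lower. Atp5g2 shares exon sequence with a pseudogene, and the part of that in its share was not tested. The muscle isoform Cox7a1 stayed a small part of subunit 7a transcripts, at 1.24, 2.55, 1.2 and 1.38% of the sum of Cox7a1 and Cox7a2 in W/W vehicle and 4.84, 4.75, 4.84 and 3.31% in W/W T0901317. Its share was 3.39, 5.92, 4.31 and 2.955% in F/F vehicle, all above W/W vehicle. In W/F vehicle it was 4.98, 2.39, 3.94 and 4.09%, which overlapped W/W vehicle. These shares were computed after the values of the genes were seen, and no test was made.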
